A study of Mus musculus with 3 samples.

Results

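The 9 CC chemokine genes of myeloid cells, Ccl2, Ccl3, Ccl4, Ccl6, Ccl7, Ccl8, Ccl9, Ccl12 and Ccl24, were followed through every immune cell cluster and compartment of the healthy mouse kidney. They were chosen by name, as 9 of the 32886 gene columns of the deposited single-cell count table. The table holds 20266 CD45+ immune cells sorted from the cortex, the outer medulla (OM) and, deepest in the organ, the inner medulla (IM), each dissected by hand. All groups came from untouched wild-type male C57BL/6J mice of 10 weeks, so the groups differ by kidney compartment and by facility. Each compartment was sequenced in 3 datasets named for their facilities, Aachen, Bonn and Hamburg, which gave 9 libraries, 3 per compartment. The authors' annotation places the cells in 23 clusters, and the resident macrophages are here the clusters Macrophage_1, Macrophage_2, Macrophage_3 and Isg+_Macrophage, 5367 cells in all.

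CC chemokines are small secreted proteins named for a pair of neighbouring cysteines. They bind G protein-coupled receptors on leukocytes, and glycosaminoglycans on cell surfaces and matrix hold them near their source, so that cells migrate along the gradient. Ccl2, Ccl7 and Ccl12 are ligands of Ccr2, the receptor through which classical monocytes leave the bone marrow and enter tissue. Ccl8 of the mouse signals mainly through Ccr8. Ccl3 and Ccl4 are the macrophage inflammatory proteins, and Ccl3 binds Ccr1. Ccl6 and Ccl9 are rodent chemokines that bind Ccr1 and are made constitutively by many myeloid cells. Ccl24, eotaxin-2, attracts eosinophils through Ccr3. In the kidney, resident macrophages are a known source of several of these proteins, and their transcripts are among those that rise quickly when macrophages are activated, tissue digestion included.

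All members but Ccl24 lie on mouse chromosome 11 (GENCODE vM21, GRCm38), in 2 gene clusters of 4 members each. Ccl2 (chr11:82035571-82037453), Ccl7 (chr11:82045712-82047525), Ccl12 (chr11:82101845-82103400) and Ccl8 (chr11:82115185-82116799) are on the plus strand and span 81.2 kb. The second cluster begins 1456 kb further on and spans 91.8 kb, with Ccl9 (chr11:83572919-83578636), Ccl6 (chr11:83587882-83593087) and Ccl3 (chr11:83647844-83649355) on the minus strand and Ccl4 (chr11:83662584-83664683) on the plus strand. Ccl24 is on the minus strand of chromosome 5 (chr5:135569937-135573049). RefSeq promoter sequence (GRCm38.p6) was matched for 5 members, Ccl12, Ccl3, Ccl6, Ccl8 and Ccl9. The promoters of Ccl8 and Ccl9 are shown because these members passed the test between compartments in resident macrophages. Each is the 250 bases before the transcription start, on the gene's own strand, with capitals for the motifs found.
Ccl8 promoter, chr11:82114935-82115184, plus strand: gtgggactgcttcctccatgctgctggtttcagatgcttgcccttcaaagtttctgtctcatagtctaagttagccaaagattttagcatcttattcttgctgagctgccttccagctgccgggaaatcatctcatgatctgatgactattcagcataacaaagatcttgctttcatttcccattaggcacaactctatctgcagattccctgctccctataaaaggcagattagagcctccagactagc
Ccl9 promoter, chr11:83578637-83578886, minus strand: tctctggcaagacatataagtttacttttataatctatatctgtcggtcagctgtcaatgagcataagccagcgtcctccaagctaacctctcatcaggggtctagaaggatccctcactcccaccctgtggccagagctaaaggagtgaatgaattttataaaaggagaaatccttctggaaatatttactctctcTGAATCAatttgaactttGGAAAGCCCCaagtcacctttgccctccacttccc
The capitals mark an AP-1 motif (TGANTCA) 53 bases before the start and an NF-kB motif, on the reverse strand, 35 bases before it. They do not overlap. On both strands of 32851 mouse promoters of the same length, the AP-1 motif was in 6.75%, the NF-kB motif in 3.90%, an interferon response motif in 2.98% and a C/EBP motif (TTGCNNAA) in 9.56%. Of the 5 matched members, Ccl9 held 2 of these motifs and the other four held none in this window.

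The libraries held 621 to 3677 cells and 2122809 to 15267126 unique molecular identifiers (UMIs, 1 per captured transcript). The median per cell was 744 to 1270 UMIs in the Aachen libraries and 2802 to 3505 in the others. Resident macrophages numbered 168 to 1952 per library. The 7 resident macrophage markers, C1qa, C1qb, C1qc, Cd81, Adgre1 and Csf1r among them, summed to 18140 to 24800 CPM (counts scaled to a common library total) in the 4 resident clusters, above every other cluster. The monocyte markers were highest in the plasmacytoid dendritic cell cluster, at 4779 CPM, with 3902 CPM in the Monocyte cluster. Pairs of libraries shared 0 to 16 cell barcodes, and 20042 of the 20266 barcodes were distinct. The barcodes had 2 suffixes in each Aachen library and 1 in each Bonn and Hamburg library. What the suffixes stand for is not given, so an Aachen library may be a pool. Nothing ties a library to single animals, so the replicate is the dataset. The fits took dataset as a block, so the p-values do not directly measure the spread between datasets. A low p-value could come from a difference found mainly in 1 dataset, as for Ccl2 in monocytes, where it came mainly from Hamburg.

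Ccl4 and Ccl3 were highest in Macrophage_1. The level of Ccl4 in this cluster, as CPM summed over its cells in a dataset, was 11500 in Aachen, 2363 in Bonn and 11740 in Hamburg, a mean of 8533 ± 5344 (SD, n = 3), and it ranked first of the 23 clusters in each dataset. NK_cell_2 came next with a mean of 4876 CPM, then Macrophage_2 with 3601 and NK_cell_1 with 3466, and the ranges of neighbours in this order overlapped. Ccl3 averaged 2398 ± 1571 CPM in Macrophage_1 (SD, n = 3), where it ranked first in Aachen and Hamburg and second to Neutrophils in Bonn. Neutrophils averaged 1367 CPM of Ccl3, Macrophage_2 1250 and NK_cell_1 1163, again with overlapping ranges. Ccl4 was detected in 84.0% of Macrophage_1 cells, and in 73.6% once each cell was thinned to 500 UMIs, which leaves cells of equal depth. In B cells, taken for comparison, Ccl4 was found in 8.16% of thinned cells in Aachen, 0.443% in Bonn and 9.26% in Hamburg, against 49.9%, 22.3% and 69.6% of resident macrophages. Whether the B cell counts were free RNA or their own transcripts was not tested. Among T cells, T_cell_2 averaged 2571 CPM of Ccl4 and 410 of Ccl3. T_cell_3 averaged 118 and 19.4 CPM, the lowest of the 23 clusters for both. Both genes were therefore spread over macrophages, NK cells, neutrophils and a part of the T cells rather than held by a single cluster.

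Ccl6 and Ccl9, the rodent Ccr1 ligands, had a different order. Ccl6 was highest in Neutrophils, with 3052 CPM in Aachen, 1917 in Bonn and 2381 in Hamburg (mean 2450 ± 571, SD, n = 3). Monocytes came second in all 3 datasets with 945 ± 165 CPM and Macrophage_2 came next with 342 ± 58.8 CPM. Those 3 levels did not overlap with each other over the datasets, whereas Macrophage_2 overlapped with Macrophage_1, at 249 CPM. Thinned to 500 UMIs, 60.4% of neutrophils and 32.4% of monocytes held a Ccl6 UMI. Ccl9 was highest in Monocyte in each dataset, with 467 CPM in Aachen, 252.5 in Bonn and 194 in Hamburg. Macrophage_2 followed with 152 ± 75.3 CPM and cDC2 with 139 ± 44.2 (SD, n = 3), and the range of Macrophage_2 overlapped with that of monocytes and with that of cDC2, while cDC2, at 98.7 to 186 CPM, lay below monocytes. Macrophage_1 held a mean of 77.4 CPM of Ccl9. In B cells 0.0240% of thinned cells held a Ccl9 UMI, against 4.74% of resident macrophages.

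Ccl12 and Ccl8 peaked in Isg+_Macrophage, the cluster named for interferon-stimulated genes. Its Ccl12 level was 3095 CPM in Aachen, 816 in Bonn and 725 in Hamburg (mean 1545 ± 1343, SD, n = 3), above the whole range of Macrophage_1, which averaged 510.1 CPM. Macrophage_3 followed with 412 CPM and Malat+_Macrophage with 209.9 CPM of Ccl12. Ccl8 reached 93.8, 159.7 and 60.6 CPM in Isg+_Macrophage in Aachen, Bonn and Hamburg, first in each dataset and above the range of the next cluster. That next cluster was Macrophage_3, with 45.9 ± 0.627 CPM (SD, n = 3), the smallest spread over datasets of the clusters in which Ccl8 averaged above 10 CPM. The first rank of Isg+_Macrophage rested on few cells. In Bonn all 55 OM UMIs lay in 1 cell, with 0 UMIs in cortex and 1 in IM. In Hamburg 1 cell held 14.98 of the 19.96 OM UMIs.

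Ccl2 and Ccl7, neighbouring genes that encode monocyte attractants, had no stable order. Ccl2 averaged 370 ± 322 CPM in Macrophage_1 and 369 ± 554 in Macrophage_2 (SD, n = 3), and its first rank went to Monocyte in Aachen, Macrophage_1 in Bonn and Macrophage_2 in Hamburg. Ccl7 averaged 239 ± 368 CPM in Isg+_Macrophage (SD, n = 3), made of 54.7 CPM in Aachen, none in Bonn and 663 in Hamburg. For both genes the clusters next to each other in the order overlapped over the datasets. Ccl24 was counted as 7.92 UMIs in 5 cells, all in Hamburg. It had no count in the 7147 Aachen cells and the 6158 Bonn cells, which allows a share of cells with a UMI of up to 0.0420% and 0.0487% (3 counts, counting error only), and it could not be tested.

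The members also differed in how their UMIs were spread over resident macrophages. Ccl8 and Ccl7 were held by very few cells. The 5 resident macrophages with the most UMIs of the gene, 0.1% of all, held 45.8% of Ccl8 and 37.0% of Ccl7 UMIs, and the top 54 cells, 1%, held 90.2% and 88.1%. The same 1% held 54.3% of Ccl2 UMIs, but 19.2% of Ccl9, 15.5% of Ccl4 and 11.9% of Ccl6 UMIs. Counted per dataset, 50% of the Ccl8 UMIs came from 10 cells in Aachen, 3 in Bonn and 3 in Hamburg. For Ccl9 that number was 122, 84 and 46 cells, and for Ccl4 240, 71 and 135. A sum of Ccl8 or Ccl7 over a library was therefore mostly a sum over a handful of cells.

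**Figure D1:**
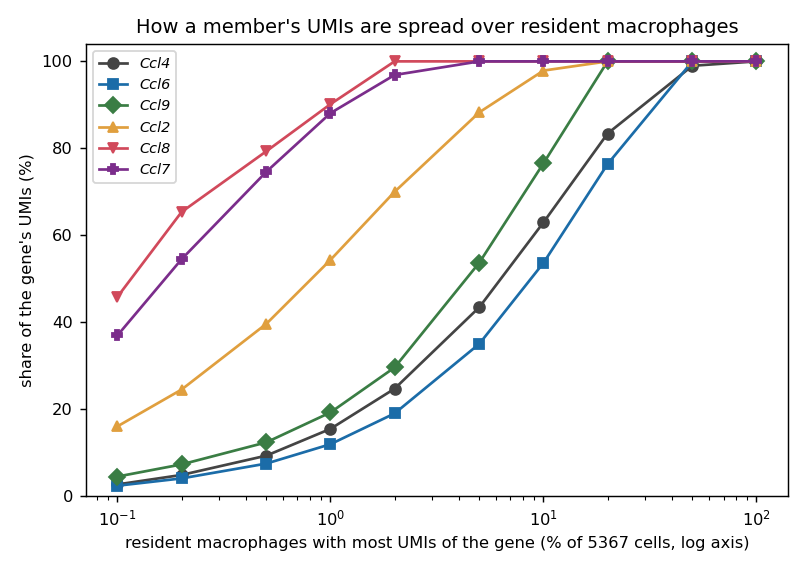
Percent of each member's UMIs in resident macrophages (y axis) against the percent of the cells, ordered from most to fewest UMIs of that gene (x axis, log scale). The curves of Ccl8 and Ccl7 reach 90.2% and 88.1% at 1% of the cells, while Ccl6 and Ccl4 reach 11.9% and 15.5%.

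For Ccl2, Ccl3, Ccl4 and Ccl7 the level depended strongly on the facility dataset. In resident macrophages, Ccl4 was at 5613 CPM in Aachen, 966 in Bonn and 9275 in Hamburg, a 9.60-fold range. Ccl3 ranged 10.45-fold, Ccl2 20.1-fold and Ccl7 83.6-fold, each lowest in Bonn and highest in Hamburg. Ccl8 ranged 1.23-fold, with 25.1, 30.8 and 27.8 CPM, and Ccl6 1.57-fold, with 211, 269.9 and 332 CPM. Ccl9 (2.43-fold) and Ccl12 (3.05-fold) lay between. The same range of Ccl4 was 12.6-fold in Monocyte, 4.68-fold in NK cells, 5.20-fold in T cells and 20.1-fold in B cells, and Bonn was lowest in each of these. Genes of the immediate early and dissociation stress list (16 genes, Fos, Jun, Egr1, Atf3 and Hspa1a among them) had the same order of datasets. Their summed level in resident macrophages was 3224 to 12960 CPM in the 3 Bonn libraries, 15730 to 24780 in Aachen and 43780 to 48810 in Hamburg. The 11 genes of the NF-kB list, feedback inhibitors and co-induced cytokines such as Nfkbia, Tnf and Il1b, summed to 744 to 1357 CPM in Bonn, 1237 to 2186 in Aachen and 7297 to 8495 in Hamburg. Within Bonn, the immediate early list was at 3224 CPM in cortex, 4824 in OM and 12960 in IM, and Ccl4 at 324, 465 and 1287 CPM. Within Aachen the same list was highest in cortex, with 24780 CPM, as was Ccl4, with 12560 CPM. From OM to IM in Aachen, however, the list fell from 17160 to 15730 CPM, while Ccl4 was lower in OM than in IM (log2 difference -0.63). The Aachen cortex also had the most Ccl4 of the 9 libraries, although the list was higher in each Hamburg library. Facility, handling and the fractional values deposited for Hamburg cannot be told apart here, and the part of dissociation in these levels was not tested.

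**Figure D2:**
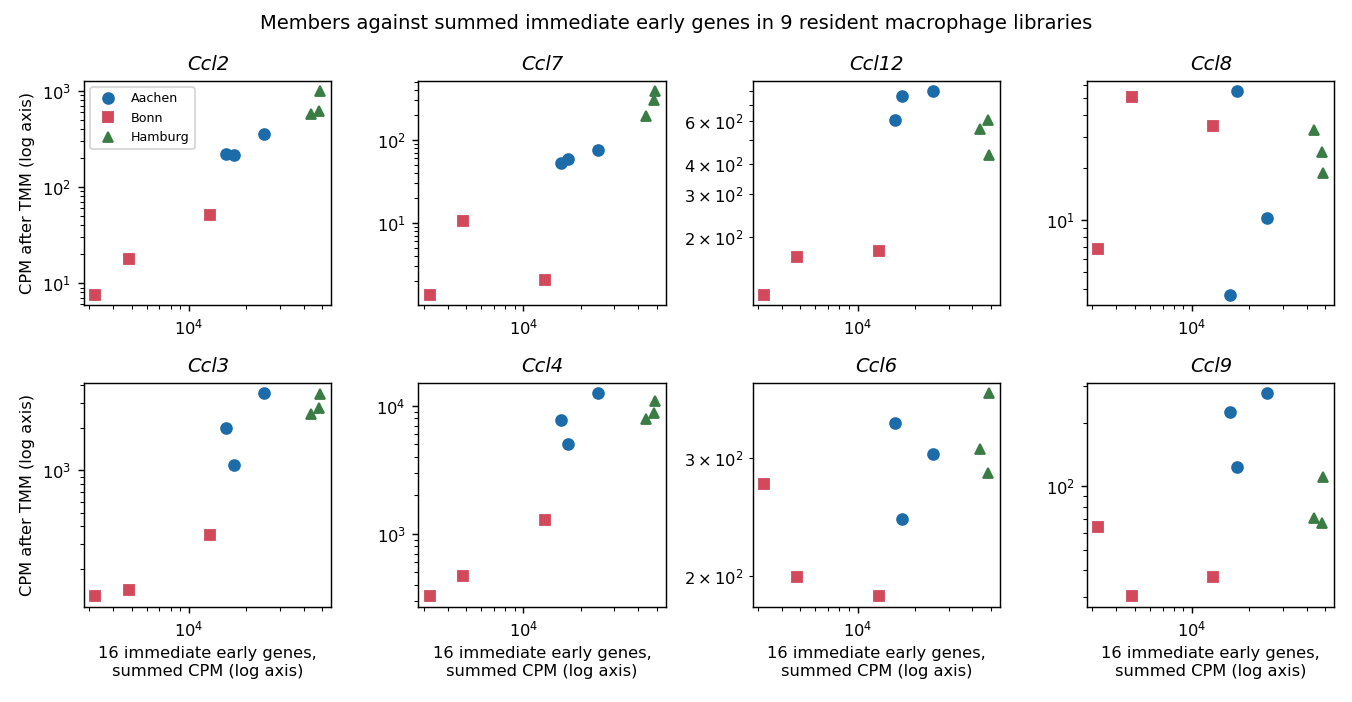
Level of the members against the summed level of 16 immediate early and dissociation stress genes in resident macrophages (CPM, both axes log scale), with 1 point per library. The 3 Hamburg libraries lie at 43780 to 48810 CPM of these genes and the Bonn libraries at 3224 to 12960. Ccl4 is lowest in Bonn.

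The main comparison asked whether the members differed between medulla (the mean of OM and IM) and cortex in resident macrophages. Counts were summed per library and tested with edgeR's quasi-likelihood test over 8687 genes, with dataset as a block, and p-values adjusted by Benjamini-Hochberg over all of them. Ccl9 fell and Ccl8 rose in medulla, and the other 6 tested members did not pass. Over all genes 108 passed, 1.24%, of which 56 were higher and 52 lower in medulla. The median log2 fold change of the 8 tested members was -0.23, and that of all genes 0.01.

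Ccl9, a Ccr1 ligand, was at 277 CPM in cortex, 123.5 in OM and 226 in IM in Aachen, after scaling by trimmed mean of M-values (TMM). In Bonn it was at 64.4, 30.02 and 37.1 CPM, and the Hamburg libraries had 111, 70.5 and 66.9. The cortex was thus highest within each dataset, although the ranges of the compartments overlapped across datasets. The log2 fold change in medulla was -0.79 (SE 0.15, adjusted p = 0.0175 with edgeR), made of -0.73 for Aachen, -0.93 for Bonn and -0.68 for Hamburg. OM alone was lower than cortex by a log2 fold change of -0.98 (SE 0.18, edgeR adjusted p = 0.0240), in a comparison in which 0.852% of genes passed. The Ccl9 UMIs came from 26 to 156 cells per library, and the cell with the most held 1.83 to 18.0% of them. Without that cell in each library the log2 fold change was -0.86 (edgeR adjusted p = 0.0116), and DESeq2 gave -0.80 (adjusted p = 0.0207). The share of cells with a Ccl9 UMI was higher in cortex than in OM and IM in each dataset, with 21.8% against 7.12% and 16.4% (Aachen), 28.9% against 15.5% and 16.7% (Bonn) and 28.0% against 15.5% and 16.2% (Hamburg). At 500 UMIs per cell the shares were 8.06, 4.07 and 9.32% for Aachen, 5.01, 1.79 and 2.18% for Bonn and 5.17, 3.31 and 3.09% for Hamburg, so the order of cortex and IM in Aachen turned. Without Bonn the adjusted p was 0.0949 and without Hamburg 0.146, and it also missed the threshold without the cortex library of Bonn (0.154) or Hamburg (0.0671) or the Hamburg IM library (0.0530), with log2 fold changes of -0.90 to -0.69 over all libraries and datasets left out. In OM against cortex it missed the threshold without the Hamburg dataset or any of the cortex libraries and without the Aachen or Bonn OM library (edgeR adjusted p = 0.0516 to 0.178). Markers of monocytes, in which Ccl9 was highest, summed in resident macrophages to 153 CPM in cortex, 44.03 in OM and 193 in IM in Aachen, 605, 251 and 136 in Bonn, with 259, 177 and 280.4 in Hamburg, and their part in the result was not tested.

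Ccl8, a Ccr8 ligand, went the other way. It was at 10.3 CPM in cortex, 55.0 in OM and 3.73 in IM in Aachen, at 6.80, 51.2 and 34.6 in Bonn, and at 18.7, 32.9 and 24.6 in Hamburg. Every OM library, at 32.9 to 55.0 CPM, was above every cortex library, at 6.80 to 18.7, while the IM libraries overlapped with both. The log2 fold change was 1.83 in medulla (SE 0.41, edgeR adjusted p = 0.0440) and 2.25 in OM against cortex (SE 0.45, edgeR adjusted p = 0.0357). Its size was set by Bonn, with a difference of 2.44 against 0.54 in Aachen and 0.58 in Hamburg. The counts were small. In Aachen the Ccl8 UMIs were 6 in cortex, 73 in OM and 2 in IM, held by 5, 37 and 2 cells. In Bonn 55 of the 58 OM UMIs lay in a single cell, and in the Hamburg cortex 17.0 of 17.9. With those top cells left out of each library the medulla value was 2.40 but no longer passed (edgeR adjusted p = 0.134), DESeq2 gave 1.48 (adjusted p = 0.304), and without Bonn it was 0.82 (edgeR adjusted p = 0.720). Of the 12 fits that left out a library or dataset it passed in 3, those without the Aachen dataset, the Aachen IM library or the Hamburg cortex library. In OM against cortex the call was lost without the top cells (edgeR adjusted p = 0.177) and in 7 of the 12 fits, with log2 values of 1.37 to 2.95.

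The mix of macrophage clusters changed along with the compartment. Macrophage_3, where Ccl8 was second highest, had 0 of 496 resident macrophages in the Aachen cortex and 0 of 232 in the Hamburg cortex, which allows shares of up to 0.605% and 1.29%, and 7.05% of those in the Bonn cortex. In OM its share was 44.7% in Aachen, 42.9% in Bonn and 23.0% in Hamburg. With Macrophage_1 and Macrophage_2 given equal weight in every library, the Ccl8 difference between medulla and cortex was 0.63 on the log2 scale in Aachen, -0.80 in Bonn and -0.22 in Hamburg, so that its direction turned in both. The Ccl9 difference was -0.76, -0.75 and -0.48 under the same weights, negative in 3 of 3 datasets. Within Macrophage_1 alone it was -0.85 in Aachen, -1.57 in Bonn and -0.40 in Hamburg. Within Macrophage_2 alone it was -0.65, -0.04 and -0.55. The Bonn value of Macrophage_1 rested on 10 Ccl9 UMIs in 24 cortex cells and 3 UMIs in 30 OM cells. In Bonn the fall was thus found mainly in Macrophage_1. Macrophage_1, where Ccl3 and Ccl4 were highest, made up 4.45% of resident macrophages in the Bonn cortex, 17.9% in OM and 44.4% in IM. Under the same weights the Bonn difference was -0.30 for Ccl4 and -1.505 for Ccl3, against 1.20 and 0.75 as found. That of Ccl2 in Bonn stayed above 0, at 2.16. Macrophage_1 was 24 cells in the Bonn cortex, and the part of the cluster mix was not tested.

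**Figure D3:**
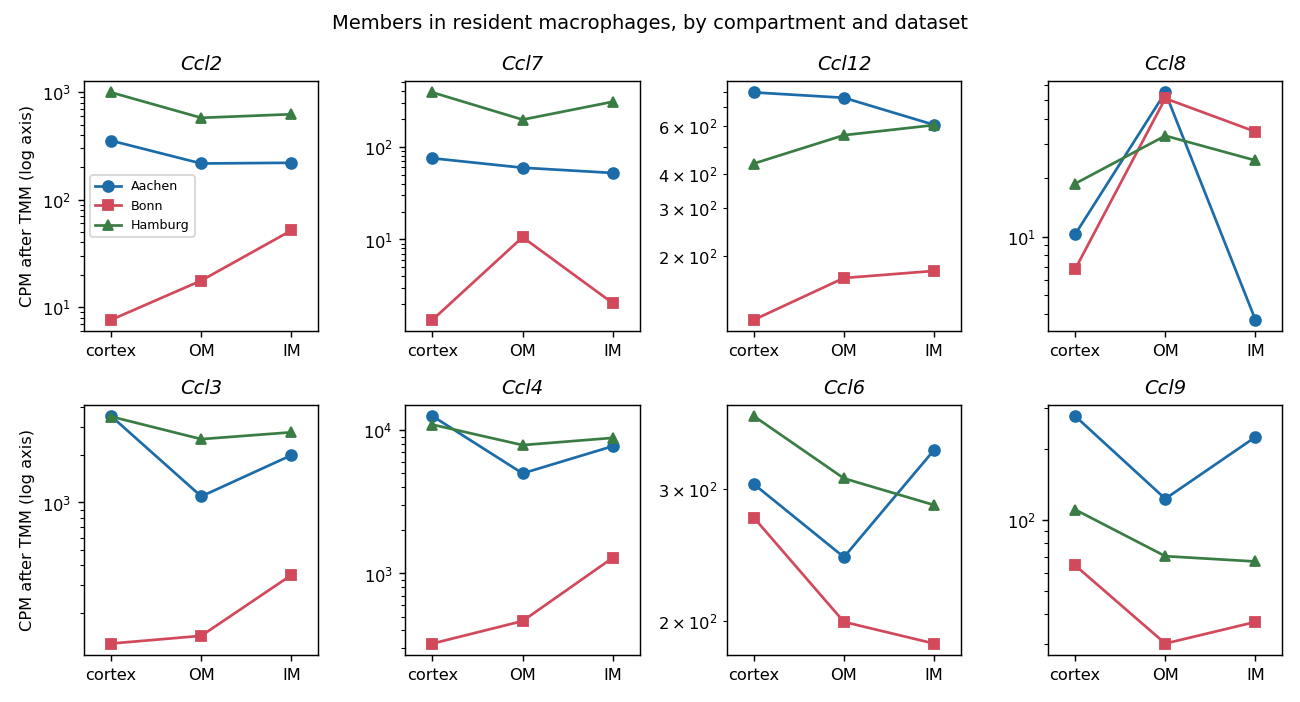
Level of the 8 tested members in resident macrophages (CPM after TMM scaling, log scale) in cortex, OM and IM, with 1 point per library and lines joining the libraries of a dataset. Ccl9 is highest in cortex on each line, Ccl8 is highest in OM on each line, and the lines of Ccl2, Ccl3 and Ccl4 rise from cortex to IM in Bonn alone.

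The remaining members had no difference between compartments that passed. Ccl4 was at 12560, 5000 and 7742 CPM in cortex, OM and IM in Aachen, 324, 465 and 1287 in Bonn, with 10950, 7882 and 8848 in Hamburg. The cortex was therefore highest in 2 datasets and lowest in Bonn, and the log2 fold change in medulla was -0.14 (SE 0.30, edgeR adjusted p = 0.959). Ccl3 behaved likewise, with differences of -1.26 in Aachen, 0.80 in Bonn and -0.40 in Hamburg and a joint value of -0.36 (SE 0.27, edgeR adjusted p = 0.752). Ccl2 had differences of -0.69, 1.85 and -0.73 (joint -0.11, SE 0.36, edgeR adjusted p = 0.982). With Bonn left out, these 3 members passed, at -0.70 for Ccl4 (edgeR adjusted p = 0.0143), -0.83 for Ccl3 (0.0171) and -0.71 for Ccl2 (0.0143). Bonn was the dataset that went the other way. The share of all genes that passed in that fit is not given here, so these passes cannot be read as particular to the members. Ccl12, induced by interferon and a ligand of Ccr2, was at 795, 759.9 and 605 CPM in Aachen, 117, 166 and 176 in Bonn, with 436, 554 and 603 in Hamburg (log2 fold change 0.24, SE 0.15, edgeR adjusted p = 0.678). Ccl6 lay between 187 and 375 CPM in all 9 libraries (log2 fold change -0.32, SE 0.13, edgeR adjusted p = 0.396). Ccl7 lay between 1.36 CPM in the Bonn cortex and 386 in the Hamburg cortex (log2 fold change -0.39, SE 0.28, edgeR adjusted p = 0.737). Between IM and cortex edgeR called none of the members, where 17 genes, 0.196%, passed and 2 members had an unadjusted p under 0.05, and DESeq2 called none. Between OM and IM it called none of the 8687 genes, 267 of which had an unadjusted p under 0.05, 3 members among them, and DESeq2 called none of the members.

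Within single clusters, a few members passed, most of them lower outside the cortex. Over 23 clusters and classes, 111 tests of a member in medulla against cortex gave 7 calls, 1 higher and 6 lower, where 0.312% of all tests over all genes passed, and 17 clusters or classes had none, among them all T cell, B cell and NK cell groups, cDC2 and all immune cells together. The classes hold the single clusters, so these tests share cells. The 7 calls include those of Ccl8 and Ccl9 in all resident macrophages, and Ccl7 in cDC as well as in cDC1. In Macrophage_1, Ccl3 fell by 0.90 on the log2 scale in medulla (SE 0.18, edgeR adjusted p = 0.0122), where 0.516% of 6978 genes passed, and by 1.14 in OM against cortex (SE 0.22, edgeR adjusted p = 0.00861, 0.473% passed). Its level in cortex, OM and IM was 5200, 2309 and 4329 CPM in Aachen, 1483, 329 and 554 in Bonn, with 4295, 3491 and 3504 in Hamburg. The cortex was highest in each dataset. In the Bonn cortex, however, Macrophage_1 was 24 cells with 188 Ccl3 UMIs, of which 111 lay in 1 cell. Without the top cell of each library the medulla value was -0.52 (edgeR adjusted p = 0.221) and that of OM -0.83 (edgeR adjusted p = 0.0393), and without Bonn the medulla value was -0.49 (edgeR adjusted p = 0.262). The medulla call was also lost with DESeq2 (adjusted p = 0.281) and without the Bonn cortex, Bonn IM or Hamburg IM library, and the OM call without the Aachen or Bonn dataset or OM library. Ccl4, the neighbour of Ccl3, had a log2 fold change of -0.34 in Macrophage_1 (SE 0.14, edgeR adjusted p = 0.539).

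In Macrophage_2, Ccl2 and Ccl7 fell in OM against cortex, where 0.16% of 4989 genes passed. In medulla against cortex none of its 8 tested members passed with edgeR, where 0.02% of genes did, 3 members had an unadjusted p under 0.05, and DESeq2 called none. Ccl2 was at 164 CPM in cortex, 109 in OM and 99.4 in IM in Aachen, 9.61, 3.57 and 8.11 in Bonn, with 1452, 515 and 1159 in Hamburg, so OM was below cortex in each dataset (log2 fold change -1.28, SE 0.23, edgeR adjusted p = 0.00473). Ccl7 was counted mainly in Hamburg, with 159 UMIs in 9 cortex cells, 43.97 in 8 OM cells and 136 in 6 IM cells, against 0 to 6 UMIs in each Aachen and Bonn library. Its log2 fold change was -2.09 in OM against cortex (SE 0.30, edgeR adjusted p = 2.47e-04) and -2.46 in OM against IM (edgeR adjusted p = 7.41e-06, 0.16% passed). DESeq2 called neither in OM against cortex (adjusted p = 0.351 for Ccl2 and 0.0506 for Ccl7). Without the top cell of each library Ccl2 had an adjusted p of 0.104 and Ccl7 of 0.0878 in OM against cortex (edgeR), and without Hamburg Ccl2 was at -0.66 (edgeR adjusted p = 0.894) and Ccl7 had too few counts to be tested. Both also missed the threshold without the Hamburg cortex or the Hamburg OM library, and Ccl7 in OM against IM did so without the Hamburg OM or IM library. The OM against cortex calls were also lost without cells with lymphocyte markers (edgeR adjusted p = 0.917 for Ccl2 and 0.405 for Ccl7). That filter kept 37 of 76 Macrophage_2 cells in the Hamburg cortex and 56 of 90 in the Hamburg OM. In Macrophage_3, Ccl7 in OM against IM (edgeR adjusted p = 2.65e-12, 0.138% passed) rested on 46.4 UMIs in 6 cells of the Hamburg IM, 51.5% of them in 1 cell, against 3.61 UMIs in the Hamburg OM, and DESeq2 gave an adjusted p of 1, as did edgeR without cells with lymphocyte markers.

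Ccl2 was lower in medulla in monocytes as well. Its level in cortex, OM and IM was 547, 518 and 265 CPM in Aachen, 41.3, 40.3 and 37.4 in Bonn, with 853, 204 and 206 in Hamburg. The Hamburg cortex stood above all other libraries. The log2 fold change was -1.39 (SE 0.20, edgeR adjusted p = 8.23e-08, 0.332% of 6029 genes passed), made of differences of -0.56 in Aachen, -0.08 in Bonn and -2.03 in Hamburg. Without the top cell of each library it was -1.64 (edgeR adjusted p = 5.61e-10) and without the Hamburg cortex library -0.30 (edgeR adjusted p = 1). DESeq2 gave -1.02 with an adjusted p of 0.999. In OM against cortex the value without the Hamburg dataset turned to 0.09, from -1.34 (edgeR adjusted p = 3.18e-04, 0.332% passed) with it, and it also missed the threshold without the Aachen dataset, the Aachen IM library or the Hamburg OM library. In IM against cortex it was -1.43 (edgeR adjusted p = 1.12e-05, 0.249% passed), with -0.40 without the Hamburg cortex library, -0.55 without the Hamburg dataset and -0.93 without the Hamburg IM library (edgeR adjusted p = 1, 1 and 0.470), -1.56 without Aachen (0.294), and an adjusted p of 1 with DESeq2.

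Ccl7 in conventional dendritic cells (cDC1 and cDC2 together) was counted as 273 UMIs in cortex, 46.1 in OM and 76.5 in IM in Hamburg and as 21, 2 and 0 in Aachen. Bonn had none in any compartment. The log2 fold change in medulla was -2.46 (SE 0.26, edgeR adjusted p = 1.01e-04, 1.81% of 7293 genes passed), and DESeq2 did not call it (adjusted p = 0.906). The value was -4.00 without the Hamburg cortex library and -2.06 without the Hamburg OM library, where it did not pass (edgeR adjusted p = 0.0672 and 0.182), and -4.70 without the Hamburg IM library, where it did. In cDC1 alone it also passed (edgeR adjusted p = 0.00541, 0.0634% passed), from 242 of the Hamburg cortex UMIs, in 14 cells, but not with DESeq2 and not without the Aachen or Hamburg dataset, the Aachen cortex or the Hamburg OM library. In Isg+_Macrophage, Ccl8 passed in OM against cortex (edgeR adjusted p = 1.46e-04, 0.107% of 1876 genes passed). The UMIs behind it were 11, 55 and 19.96 in the OM of Aachen, Bonn and Hamburg against 1, 0 and 0 in cortex, and the 55 of Bonn were in 1 of 12 cells, and without the Bonn dataset, the Bonn cortex or the Bonn OM library it did not pass (edgeR adjusted p = 0.179, 0.0982 and 0.479). Against IM, with 0, 1 and 1.89 UMIs, it passed too (edgeR adjusted p = 0.00705, 0.0533% passed), but not with DESeq2 or without the Bonn dataset, the Bonn OM or the Bonn IM library. Ccl7 in Isg+_Macrophage was lower in medulla (edgeR adjusted p = 0.00659, 0.107% passed), where 158 of the 170.5 UMIs of the Hamburg cortex lay in 1 cell. It did not pass with DESeq2 or without the Hamburg IM library.

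Whether the compartments differed in the same way in different cell types was tested as the difference of the medulla effects in 1 edgeR fit. Ccl7, which had a log2 fold change of 0.97 in Macrophage_1 and -0.86 in Macrophage_2, neither past the threshold alone (edgeR adjusted p = 0.334 and 0.289), differed between them by 2.35 (SE 0.31, edgeR adjusted p = 1.06e-05), where 0.0327% of 6111 genes passed. In Macrophage_1 the Hamburg libraries held 42.9 Ccl7 UMIs in cortex, 224 in OM and 128 in IM, the reverse of their order in Macrophage_2 for cortex and OM. Ccl9 fell in resident macrophages but was at 0.05 in cDC2 (SE 0.24), and the effects differed by -0.89 (SE 0.25, edgeR adjusted p = 0.0374), where 0.938% of genes passed. In cDC2 the Ccl9 difference was -0.02 in Aachen, -0.39 in Bonn and 1.14 in Hamburg, so the datasets did not share a direction. Ccl2 differed between resident macrophages and monocytes by 1.15 (SE 0.22, edgeR adjusted p = 1.19e-04), where 0.657% passed. In Aachen, Bonn and Hamburg its difference was -0.69, 1.85 and -0.73 in resident macrophages, against -0.56, -0.08 and -2.03 in monocytes. Aachen thus did not share the direction. Ccl3, at 0.89 in B cells (SE 0.26, edgeR adjusted p = 0.875), differed from resident macrophages by -1.23 (SE 0.27, edgeR adjusted p = 0.00386), where 1.18% passed. The B cell level was low in each library, at 1.62 to 124 CPM. The Ccl3 difference was 1.66, -0.24 and 0.78 in B cells against -1.26, 0.80 and -0.40 in resident macrophages, so Bonn went the other way. Ccl7 also differed between resident macrophages and T cells (edgeR adjusted p = 0.0193, 0.44% passed), but T cells held 25 and 4 Ccl7 UMIs in the Aachen cortex and OM and under 1 in each other library.

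Other genes of the pathway were read from lists in the same resident macrophage fit, medulla against cortex. Of 12 CC chemokine receptors, 5 could be tested and none passed with edgeR. Ccr2 had a log2 fold change of -1.01 (adjusted p = 0.0980), Ccrl2, a receptor that binds chemoattractants without signalling, -0.74 (0.135) and Ccr1, a receptor of Ccl3, Ccl6 and Ccl9, 1.49 (0.205). Of 10 other CC chemokines 1 was tested, Ccl5, at -0.27 (edgeR adjusted p = 0.912). Among 6 proteoglycans and proteases that hold or cut chemokines, 3 fell and 3 did not pass. Those that fell were Mmp12, macrophage elastase, by 1.03 on the log2 scale (edgeR adjusted p = 0.0359), Mmp14, a membrane-bound matrix metalloproteinase, by 0.99 (0.0382), and Dpp4, a peptidase that trims chemokine ends, by 1.05 (0.0385). The median of the list was -0.48, against 0.01 over all genes. Of 10 interferon-induced genes 3 fell and 7 did not pass, with a median of -0.64. They were Ifit2, which binds RNA, by 1.21 (edgeR adjusted p = 0.00873), Oasl1, a regulator of interferon production, by 1.15 (0.0175), and Rsad2, viperin, by 0.98 (0.0212). Of the 11 NF-kB genes and the 16 immediate early genes none passed, with medians of -0.01 and 0.23. Markers of kidney epithelium differed too, with Kap and Fxyd2 higher in medulla, and the 6 markers summed to 24.5 to 31.7 CPM in the cortex libraries and 63.4 to 779 in the medulla libraries. Markers of lymphocytes were lower in medulla in part, with Cd79b of B cells down by 0.79 on the log2 scale (edgeR adjusted p = 0.0232). The 3 tested T cell and 2 tested NK cell markers did not pass, with medians of -1.58 and -2.00. The summed B cell markers were at 817 CPM in the Bonn cortex against 104.3 to 476 in the other libraries, the T cell markers at 190.3 against 6.88 to 103, and the NK cell markers at 113 against 0.625 to 72.2. Without cells that held 2 or more lymphocyte marker UMIs, Ccl9 in medulla against cortex was at -0.85 (edgeR adjusted p = 0.0124) and Ccl8 at 1.80 (edgeR adjusted p = 0.0102). This filter kept 479 of 496 resident macrophages in the Aachen cortex, 230 of 539 in the Bonn cortex and 139 of 232 in the Hamburg cortex. It thus took out a larger share of cells in the deeper datasets. The part of epithelial RNA in these results was not tested.

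For 3 pairs of members of the same gene cluster, detection in the same cells was described, and in each dataset Ccl4 was detected in a higher share of cells with Ccl3 than of those without. In Macrophage_1 cells thinned to 500 UMIs, Ccl4 was detected in 91.0% of cells with a Ccl3 UMI in Aachen, 74.2% in Bonn and 91.0% in Hamburg, against 66.1%, 43.6% and 65.1% of the other cells. In Macrophage_2 the same shares were 56.7%, 29.6% and 79.8% against 29.9%, 12.3% and 54.0%. The gap had the same direction in monocytes, with 58.3%, 9.09% and 55.9% against 31.1%, 3.46% and 19.8%. Ccl7 was in 8.70% of Macrophage_1 cells with Ccl2 against 1.31% of those without in Aachen and in 13.5% against 2.55% in Hamburg, while in Bonn it was in none against 0.617%. Ccl9 differed less between Macrophage_1 cells with and without Ccl6, at 6.36% against 4.52%, 3.57% against 1.93% and 5% against 2.47%. In Macrophage_2 this gap turned in Aachen (8.62% against 9.64%) and Hamburg (3.23% against 7.87%), but not in Bonn (6.90% against 4.97%). These shares are descriptions, since cells of a library share their source. Over the 23 clusters, Pearson's r of the log2 levels was 0.941 for Ccl3 with Ccl4, 0.877 for Ccl2 with Ccl7 and 0.825 for Ccl8 with Ccl12, where the points share libraries and depth. High values were not limited to neighbouring genes. Ccl2 with Ccl6, from different gene clusters, had 0.838, while Ccl2 with Ccl8, from the same gene cluster, had 0.542.

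Outside the members, the genes most like each one over the 23 clusters were taken as the 3 with the highest r among 12298 genes. Ccl3 and Ccl4 named the same 3, Metrnl (r = 0.900 and 0.848), a secreted cytokine, Efhd2 (0.883 and 0.809), a calcium-binding adaptor, and Sh2d1b1 (0.856 and 0.808), an adaptor of NK cell receptors. Ccl6 was nearest to C130050O18Rik (0.934), the inflammatory cytokine Il1b (0.931) and Igsf6 (0.929). Ccl9 was nearest to Ms4a6c (0.899), the prostaglandin-degrading enzyme Hpgd (0.893) and Anxa3 (0.887). Ccl12 was nearest to the interferon-induced Oas1g (0.925), the platelet factor Pf4 (0.912) and Dcakd (0.892), and Ccl8 to 4833411C07Rik (0.929), A4galt (0.923) and Pigz (0.916). Ccl2 was nearest to Tns3 (0.917), Naip6 (0.909) and the nucleotide receptor P2ry6 (0.909), and Ccl7 to Gatm (0.896), the macrophage marker Aif1 (0.889) and Ppfia4 (0.882). For Ccl24, with UMIs in 5 cells, the values of Fpr1 (0.804), Il18bp (0.801) and Gpr31b (0.800) rest on those cells.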

How the data were processed

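Live CD45+ cells were sorted from PBS-perfused kidneys after digestion with collagenase and DNase and sequenced by droplet-based scRNA-seq. The authors aligned reads to mm10 with Cell Ranger, filtered cells with Seurat (200 to 4000 genes, at most 20% mitochondrial reads) and annotated 23 clusters, which were used as deposited. The Cell Ranger version and how doublets were treated are not given in the sources used here. No doublet caller was run here. The deposited values are estimated counts of UMIs per cell, labelled as raw. They are whole numbers in Aachen and Bonn but in 0.1184% of non-zero values in Hamburg. The step that made the Hamburg values fractional is not given, so they may not be the same measure as those of Aachen and Bonn. Any non-zero value, also one under 1, counted as a cell with a UMI. Hamburg sums were rounded. A low value can therefore be shifted by rounding.

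Counts were summed per library and cluster or class, and a library with under 10 cells was left out. Genes were filtered with filterByExpr, scaled by TMM and tested with edgeR 4.0.16 in R 4.3.3 (quasi-likelihood, two-sided, dataset as block, Benjamini-Hochberg over all genes, threshold 0.05). Macrophage_3 was fitted without the libraries that lacked 10 of its cells. CPM of a cluster and dataset is its summed UMIs scaled to a common total. Likeness used log2(CPM + 1) and tables were handled with pandas 2.3.3, numpy 2.4.6 and scipy 1.17.1. Libraries are paired by dataset. Over 8687 genes, deviations from the compartment mean had r of 0.815 to 0.914 for the 9 library pairs of 1 dataset, and of -0.795 to 0.475 for the 18 pairs from different datasets.

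On simulated counts for medulla against cortex in resident macrophages (8228 genes, 200 changed), 74% of 2-fold and 92% of 4-fold changes were recovered, with 10 false calls. Alternatives were DESeq2 1.42.0, no block, no filter, Hamburg values rounded up, cells thinned to 500 UMIs, cells with lymphocyte markers left out, Malat+_Macrophage added, equal cluster weights, and each library or dataset left out. The fit without the top cell of each library and the equal weights of Macrophage_1 and Macrophage_2 were chosen after seeing the data. The text names all 9 members, the 3 most similar genes per member and at most 4 genes per list. Some genes of the lists are not reported here. Members and lists were chosen with earlier results of these data known. Intervals and limits cover counting error only.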

Additional observations from a re-analysis of the deposited data

Results flagged for a closer look

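The difference between medulla and cortex was itself compared between cell types, in an edgeR fit with library and cell type, and it differed in 5 cases (5 pairs of cell types, p-values adjusted over all genes of a pair). For Ccl7, the effect in Macrophage_1 exceeded that in Macrophage_2 by a log2 value of 2.35 (SE 0.31, adjusted p = 1.06e-05, in a comparison in which 0.0327% of genes passed), and by 2.27 without the top cell of each library (adjusted p = 0.00203). For Ccl2, the effect in resident macrophages exceeded that in monocytes by 1.15 (SE 0.22, adjusted p = 1.19e-04, 0.657% passed), and by 1.47 without the top cells (adjusted p = 4.15e-07). In Aachen it did not, at -0.69 in resident macrophages and -0.56 in monocytes. Bonn had 1.85 and -0.08, and Hamburg -0.73 and -2.03. With a library or dataset left out, the Ccl2 effect ranged from -0.71 to 0.36 in resident macrophages. In monocytes that effect ranged from -1.70 to -0.23. The differences between cell types were not refitted with a library or dataset left out.

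For Ccl9, the effect in resident macrophages was lower than in cDC2, with a difference of -0.89 (SE 0.25, adjusted p = 0.0374, 0.938% passed), and of -1.09 without the top cells (adjusted p = 0.00464). For Ccl7, the effect in resident macrophages exceeded that in T cells by 4.03 (SE 0.78, adjusted p = 0.0193, 0.440% passed), where T cells held 25 Ccl7 UMIs in 4 cells of the Aachen cortex. For Ccl3, the effect in resident macrophages was lower than in B cells, with a difference of -1.23 (SE 0.27, adjusted p = 0.00386, 1.18% passed), and of -1.09 without the top cells, where it no longer passed (adjusted p = 0.0509). In Bonn the order was reversed, at 0.80 in resident macrophages and -0.24 in B cells.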

How the results depend on the processing

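Of 22 called member results, 22 of 22 kept their call with no filter on low counts and with Hamburg values rounded up, 14 of 20 without cells with lymphocyte markers, 13 of 18 without the top cell of each library, 6 of 22 with DESeq2, and none of 20 without the replicate block and none of 10 in thinned cells, where fewer genes were tested (4187 against 8687 in resident macrophages). The cause of these losses, those in thinned cells included, was not tested. In resident macrophages the 2 members called in medulla against cortex became 1 with DESeq2, with Malat+_Macrophage and without the top cells, and 0 without the replicate block and in thinned cells. In OM against cortex the 2 became 1 with Malat+_Macrophage and without the top cells, 0 without the block and in thinned cells, and 4 with no filter. In IM against cortex and OM against IM the 0 became 2 with no filter. How many genes passed over all genes with no filter is not given for these comparisons, so the gain cannot be read as particular to the members. In Macrophage_1 the 1 became 0 with DESeq2, without the block, without the top cells and in thinned cells, and 2 with no filter. In Macrophage_2 the 0 became 1 with no filter, and in Macrophage_3 the 0 became 1 without cells with lymphocyte markers, where the Bonn cortex was the sole cortex library and was assumed to vary like the other groups.

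With a library or dataset left out, the counts ranged from 0 to 3 (medulla), 0 to 4 (OM), 0 to 2 (IM) and 0 to 0 (OM against IM) in resident macrophages, 0 to 2 in Macrophage_1, 0 to 1 in Macrophage_2 and 0 to 0 in Macrophage_3. There, log2 fold changes of members that changed sign ranged from -0.71 to 0.36 for Ccl2, -0.83 to 0.17 for Ccl3, -0.70 to 0.38 for Ccl4 and -0.57 to 0.036 for Ccl7 in resident macrophages, and from -1.73 to 0.091 for Ccl2 in monocytes, OM against cortex. Ccl7 in resident macrophages turned to 0.084 with DESeq2. With equal weights of Macrophage_1 and Macrophage_2, Ccl3 and Ccl4 in medulla against cortex turned to -1.505 and -0.30 in Bonn. Ccl7 turned to 0.080 in Hamburg and Ccl12 to 0.13 in Aachen. Ccl8 turned to -0.80 in Bonn and -0.22 in Hamburg, and with Macrophage_3 added to -0.94 in Bonn. That weighting had no value for Aachen and Hamburg, and the fits of Macrophage_3 without the Bonn or Hamburg dataset, without any Bonn library and without the Hamburg OM or IM library could not be fitted.

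Over all genes, the 108 called in resident macrophages, medulla against cortex, became 48 with DESeq2, 382 with no filter, 68 with Malat+_Macrophage, 24 in thinned cells and 0 without the block. Such counts are not given here for the other comparisons and clusters, or with a library or dataset left out. Changes in the number of called members there cannot be set against all genes. Ccl24 had too few UMIs to be tested.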
